A study of Mus musculus with 8 samples.

Results

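The 8 genes described here belong to central myelin and to the oligodendrocytes that make it, and they were followed in cerebellum and skeletal muscle of a mouse model of spinocerebellar ataxia 17. They were Mbp, Mog, Mag, Mobp, Cnp, Cldn11, Mal and Ugt8a, taken by symbol from the 19938 genes that the array annotation names singly. All 8 were found, each with 1 probe set, and all 8 passed the filter on low values in both tissues. The arrays compared SCA17 knock-in mice, written KI, with wild-type mice, written WT, all 3 months old. Spinocerebellar ataxia 17 is a dominant ataxia caused by a lengthened run of glutamines in TBP, the TATA-box-binding protein. Each group, KI cerebellum, WT cerebellum, KI muscle and WT muscle, had 2 arrays: replicates 94 and 97 were KI, and 95 and 96 were WT. The muscle was the tibialis anterior, a fast muscle of the lower leg. The submitters name 3 mice per genotype, while the series holds 2 arrays for every group, all of which were analysed here. No source used here gives the repeat length, the promoter that drives the expanded allele, the cells that carry it or the strain.

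Oligodendrocytes wrap axons of the brain and spinal cord in many turns of their own membrane. This myelin is rich in galactolipids and in a small set of proteins, which are made in bulk once a precursor matures. In the cerebellum it lies mainly in the white matter and around Purkinje cell axons, while in muscle the intramuscular nerves are myelinated by Schwann cells, which share some of these proteins and lack others. Mog and Mobp are typical of central myelin, whereas Mbp, Mag, Cnp and Mal are also made by Schwann cells.

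SOX10 and MYRF, transcription factors of the oligodendrocyte lineage, switch on many myelin genes, so the promoters of the 8 genes were searched for letters that such factors bind. RefSeq promoter sequence on GRCm38.p6, covering 250 bases before and 50 bases after the first listed start, was at hand for 7 genes, all but Mbp. ACAAAG, a core of SOX sites, read on both strands (CTTTGT on the other), was present in 3 of 7, against 18.7% of all 32851 promoters. CTGGCAC, a MYRF motif, read on both strands, was present in 2 of 7, Mag and Cnp, against 5.01% of all promoters. CAGCTG, an E-box form, was in 0 of 7, against 16.3%. The 250 bases before the start of the 3 genes with SOX letters follow, 5′ to 3′ in the direction of transcription, with ACAAAG or CTTTGT in capitals. Mag lies at chr7:30914864-30915113 on the minus strand, Mobp at chr9:120149492-120149741 and Cnp at chr11:100574689-100574938, both on the plus strand.
Mag: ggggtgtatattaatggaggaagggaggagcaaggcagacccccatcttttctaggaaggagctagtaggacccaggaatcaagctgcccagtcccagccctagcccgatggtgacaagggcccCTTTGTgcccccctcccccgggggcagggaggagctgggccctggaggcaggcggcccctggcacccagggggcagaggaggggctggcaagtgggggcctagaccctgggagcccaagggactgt
Mobp: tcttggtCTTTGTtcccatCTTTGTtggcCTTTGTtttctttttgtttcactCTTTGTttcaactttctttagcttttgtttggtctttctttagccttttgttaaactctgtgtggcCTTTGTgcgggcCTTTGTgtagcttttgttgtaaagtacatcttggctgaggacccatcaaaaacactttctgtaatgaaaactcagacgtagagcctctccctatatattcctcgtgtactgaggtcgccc
Cnp: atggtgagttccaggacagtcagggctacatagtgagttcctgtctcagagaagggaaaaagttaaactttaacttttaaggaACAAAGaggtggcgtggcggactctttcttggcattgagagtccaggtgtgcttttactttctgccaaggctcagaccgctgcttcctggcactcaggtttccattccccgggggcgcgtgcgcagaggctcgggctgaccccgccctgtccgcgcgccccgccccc
Mobp held 6 copies, which begin at positions -243, -231, -221, -198, -132 and -120 from the start, Mag held 1 at -126, and Cnp held 1 at -167. A match of 6 letters is a description of the sequence and not a measured site.

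Array medians ranged from 5.40 to 5.51 (log2), and arrays within a group correlated with r from 0.977 to 0.989 over probe sets, which are not independent replicates. Skeletal muscle fibre genes had a mean level of 11.29 to 11.72 on muscle arrays and 5.14 to 5.33 on cerebellum arrays, and granule neuron genes 9.99 to 10.40 in cerebellum and 4.86 to 5.10 in muscle. One marker stood apart on a muscle array, as seen after the values were examined. Ttr, the transthyretin of choroid plexus, was at 8.13 on KI muscle replicate 94 and between 5.77 and 6.08 on the other 3 muscle arrays, and between 11.60 and 12.14 in cerebellum. Tbp itself was at 7.68 and 7.52 in KI and at 7.85 and 7.71 in WT cerebellum, with both KI arrays below WT (-0.18 on the log2 scale; limma adjusted p = 0.998). In muscle it was at 6.80 and 6.94 in KI and at 6.70 and 6.81 in WT, where the groups overlapped. Its probe set does not tell the expanded allele from the normal one. Nothing says that the 2 arrays of a group came from separate animals, so p-values measure only the spread between these samples, and having so few arrays limits the precision. In such bulk tissue, fewer cells of a type and less RNA per cell cannot be told apart.

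The 8 genes were bright in the cerebellum. Mbp, myelin basic protein, which holds the inner faces of the membrane together (probe set 10457022, chromosome 18), was at 9.64 and 9.47 on the KI arrays 94 and 97 and at 9.57 and 9.48 on the WT arrays 95 and 96, all log2 levels. The WT arrays lay between the KI arrays, and all 4 were above 96.6% to 96.9% of the probe sets of their arrays. Cnp, a phosphodiesterase of the cytoplasmic channels of myelin (10381154, chromosome 11), was at 9.70 and 9.19 in KI and at 9.52 and 9.42 in WT. The KI arrays were thus the highest and the lowest of the 4. Cldn11, the claudin of the tight junctions between myelin turns (10491313, chromosome 3), was at 9.31 and 8.71 in KI and at 9.20 and 8.90 in WT, again with the KI arrays outermost.

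The adhesion molecules followed the same order. Mag, a sialic acid-binding protein of the innermost turn that faces the axon (10562152, chromosome 7), was at 9.03 and 8.55 in KI cerebellum and at 8.74 and 8.64 in WT. Mog, an immunoglobulin-like protein on the outermost turn (10450845, chromosome 17), was at 8.51 and 8.14 in KI and at 8.34 and 8.21 in WT. In both genes the WT arrays lay between the KI arrays.

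In the remaining genes KI array 94 was level with WT while KI array 97 was lower. Mobp, a small basic protein of the compact sheath (10590269, chromosome 9), was at 8.36 and 7.67 in KI and at 8.44 and 8.39 in WT. Mal, a membrane protein that carries lipid-rich vesicles to myelin (10487441, chromosome 2), was at 8.74 and 8.23 in KI and at 8.78 on both WT arrays. Ugt8a, the enzyme that makes galactosylceramide (10501963, chromosome 3), was at 8.68 and 8.11 in KI and at 8.74 and 8.59 in WT. Both KI arrays were below both WT arrays in Mobp and Mal, and the groups overlapped in Ugt8a. Over all genes tested in the cerebellum, KI lay below WT in this way in 20.0%.

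**Figure D1:**
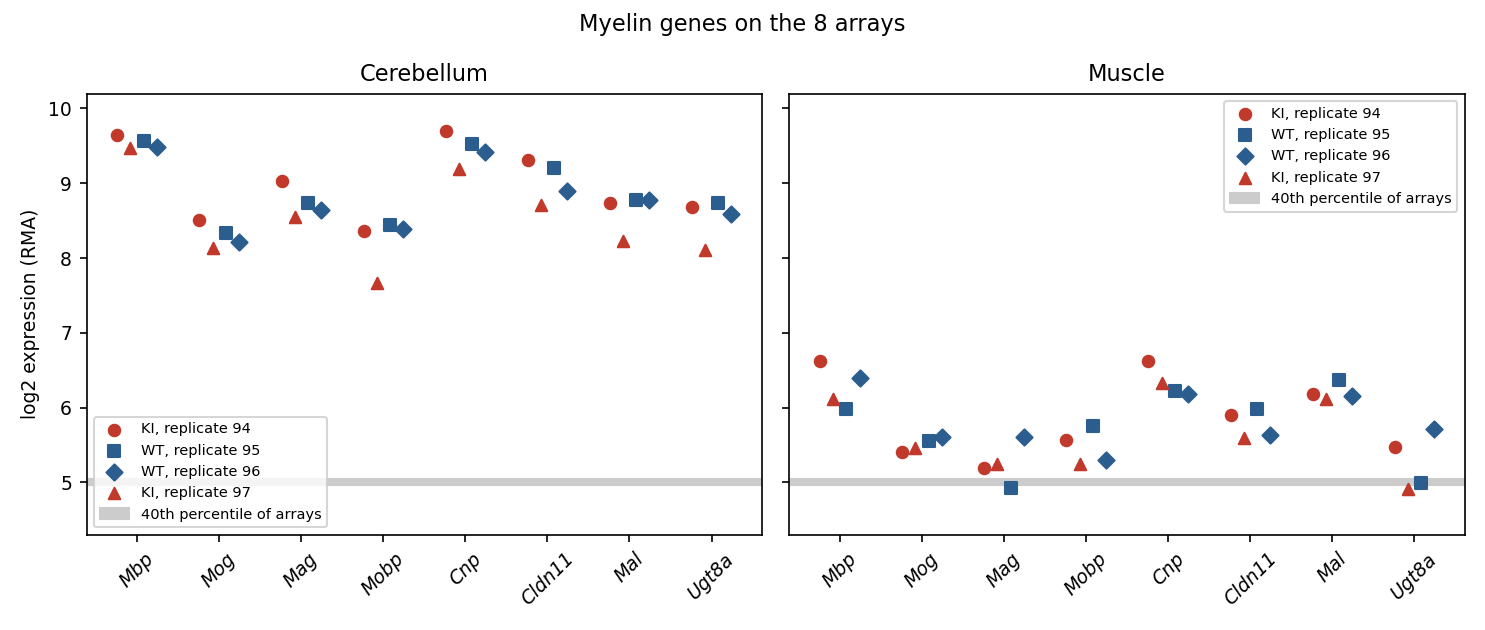
Log2 expression (RMA) of the 8 myelin genes, 1 point per array, in cerebellum (left) and muscle (right); red is KI, blue is WT, and the grey band marks the 40th percentile of the arrays. Cerebellum arrays sit between 7.67 and 9.70 and muscle arrays between 4.91 and 6.62, and KI replicate 97 (red triangles) is the lowest cerebellum array in all 8 genes.

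In tibialis anterior muscle the same probe sets were close to the middle of their arrays, between the 37.3rd and the 71.5th percentile. Mbp was at 6.62 and 6.12 on KI arrays 94 and 97 and at 5.98 and 6.39 on WT arrays 95 and 96. Cnp was at 6.62 and 6.33 in KI and at 6.22 and 6.18 in WT, so that its KI arrays were above its WT arrays. Mal was at 6.18 and 6.11 in KI and at 6.37 and 6.15 in WT, and Mbp and Mal overlapped between genotypes. The highest Mbp and Cnp values were those of KI replicate 94, the array with the high Ttr, while its mean over the 5 granule cell genes tested in muscle, 5.23, was below those of the other muscle arrays (5.29 to 5.63). The part of cerebellar RNA in these values was not tested.

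The other 5 genes also gave readings near the middle of the muscle arrays. Mog was at 5.41 and 5.46 in KI and at 5.55 and 5.61 in WT, with both KI arrays below WT. Mobp was at 5.56 and 5.25 in KI and at 5.76 and 5.30 in WT. Cldn11 was at 5.90 and 5.59 in KI and at 5.98 and 5.64 in WT, and both genes overlapped between genotypes. Mag was at 5.19 and 5.25 in KI and at 4.92 and 5.60 in WT, and 3 of its 4 muscle arrays reached the 40th percentile. Ugt8a was at 5.47 and 4.91 in KI and at 4.99 and 5.72 in WT, and 2 of its 4 arrays did so. The median SD of the 8 genes was 0.210 in KI and 0.264 in WT muscle, against 0.0894 and 0.0991 over all genes tested there (n = 2 arrays each). The SD was above the median of all genes in 5 of the 8 in KI and in 6 of the 8 in WT muscle, and Mog lay below it in both groups.

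All 8 myelin genes were lower in muscle than in cerebellum. The comparison set the mean of both muscle groups against the mean of both cerebellum groups, and a gene was called at an adjusted p under 0.05 and a change of at least 2-fold. Of all 14708 genes tested, 15.0% were called lower in muscle, and the median difference was 0.03 over all genes against -3.19 over the 8. Mag had the largest difference of the 8, at -3.50 ± 0.15 on the log2 scale (SE; 11.3-fold lower; limma adjusted p = 2.62e-08). Mbp was 9.59-fold lower (-3.26 ± 0.13; limma adjusted p = 1.35e-08), Ugt8a 9.57-fold (-3.26 ± 0.19) and Cldn11 9.54-fold (-3.25 ± 0.15). Cnp was 8.68-fold lower (-3.12 ± 0.12), Mog 6.93-fold (-2.79 ± 0.09) and Mobp 6.70-fold (-2.74 ± 0.16). Mal, which many epithelia also make, had the smallest difference of the 8, 5.39-fold (-2.43 ± 0.11, SE; limma adjusted p = 4.21e-08). In every one of the 8 genes each of the 4 cerebellum arrays lay above each of the 4 muscle arrays, which was so for 33.2% of all genes tested. In muscle Mag and Ugt8a fell below the 40th percentile on some arrays, and their folds depend on the background of the arrays. No source used here says which arrays were normalised together.

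Both genotypes had this tissue difference. In WT the cerebellum stood above muscle by 2.52 (Mal) to 3.43 (Mag) on the log2 scale, and in KI by 2.34 (Mal) to 3.57 (Mag). For each gene, then, both cerebellum groups came first and both muscle groups last. The KI and WT groups of a tissue, neighbours in that order, were not called different in any of the 8.

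Many other oligodendrocyte genes also differed between tissues. Over all genes tested 15.0% were called lower in muscle, which is the share for each list that follows. Of 26 tested genes of mature oligodendrocytes, 15 were called lower in muscle and 1 higher (median log2 difference -1.24). Ermn, a cytoskeletal protein of myelin (-4.36), Omg, an inhibitor of neurite growth on myelin (-4.17), and Gjc3, a glial connexin (-3.63), had the largest falls. The gene that was higher in muscle was Cryab, a small heat shock protein that muscle fibres also make in quantity (1.96 ± 0.07, SE; limma adjusted p = 9.08e-09). Of 14 transcription factors of the lineage, 8 were lower, among them St18 (-3.82), Id2 (-3.10) and Id4 (-2.69), and none was higher. Of 13 genes of oligodendrocyte precursors, 7 were lower, led by Ptprz1 (-4.96), Tnr (-3.05) and Lhfpl3 (-2.64). The growth factor Bmp4 (1.20) was the 1 called higher. In muscle Ermn, Omg, St18 and Ptprz1 reached the 40th percentile on 0 of 4 arrays, and Tnr on 1. They were tested here because they passed the filter in cerebellum, and the size of their falls depends on the background of the arrays. In muscle 18 of the 26 mature genes, 11 of the 14 transcription factors and 11 of the 13 precursor genes passed it. Genes that passed only in cerebellum were low in muscle through the filter itself, so these counts and medians partly follow from it.

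Of 15 genes that make or break down the sphingolipids of myelin, 5 were lower in muscle, and Elovl6, a fatty acid elongase (-3.69), Fa2h, which hydroxylates the fatty acids of galactolipids (-2.36), and Ugcg, glucosylceramide synthase (-1.62), were the largest. Of 15 genes of the node of Ranvier and the axon surface, 10 were lower, with Cntn1, a contactin of the paranodal junction (-5.17), Nrcam (-4.01) and the sodium channel Scn8a (-3.86) in front. Neurons make these proteins too. Nrcam and Scn8a reached the 40th percentile on 0 of 4 muscle arrays and Cntn1 on 2, so their values also depend on the background. Of the 15 node and axon genes, 13 passed the filter in muscle, so the count of this list also follows in part from the filter. Of 11 tested Schwann cell genes, 2 were called lower and none higher, and the median was 0.15. This count is near the 15.0% of all genes tested that were called lower. S100b, a calcium-binding protein that astrocytes also make, was at -2.92, Cdh19 at -1.20 and Drp2, a dystrophin-related protein of the Schwann cell surface, at -0.81. Cdh19 also reached the 40th percentile on 0 of 4 muscle arrays. With 1 array left out its difference ran from -1.44 to -0.96, the last short of 2-fold. Pmp22, the peripheral myelin protein, was between 9.37 and 9.96 in muscle and between 9.10 and 9.26 in cerebellum. It is named here after its values were seen.

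**Figure D2:**
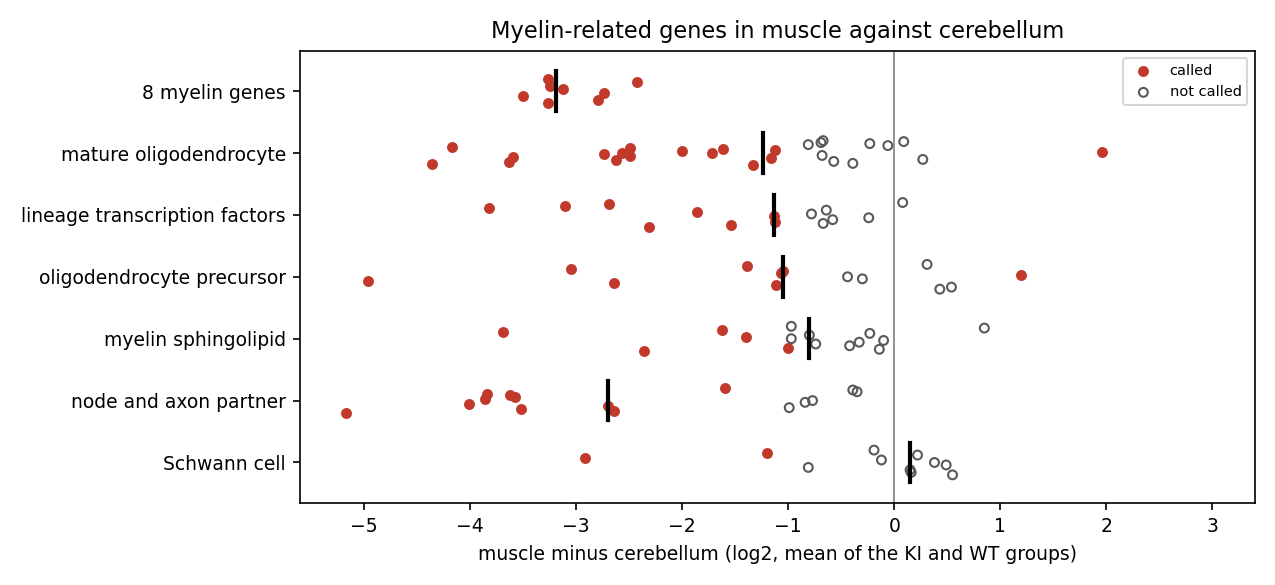
Difference between muscle and cerebellum (log2, mean of KI and WT groups) for each tested gene of 7 lists; filled red points were called and open points were not, and the black bar is the median of a list. The 8 myelin genes lie between -3.50 and -2.43, and the Schwann cell list has its median at 0.15.

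None of the 8 myelin genes was called different between KI and WT cerebellum, the tissue affected in the human disease. Over all 13641 genes tested there 28 were called, or 0.205%, and 0 of the 8 had an unadjusted p under 0.05 in limma, against 5.33% of all genes. Mobp had the largest difference of the 8, at -0.40 ± 0.23 on the log2 scale (SE, n = 2 arrays per group; limma adjusted p = 0.998; 95% interval -0.92 to 0.12). Mal was at -0.29 ± 0.16 (interval -0.66 to 0.07) and Ugt8a at -0.27 ± 0.27 (-0.88 to 0.35). In Mobp and Mal both KI arrays lay below both WT arrays, and no gene of the 8 had both KI arrays above. Such a separation, in either direction, was seen in 35.3% of all genes tested.

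The other genes were centred near 0. Mag was at 0.10 ± 0.22 (interval -0.39 to 0.59), Mog at 0.05 ± 0.13 (-0.25 to 0.35) and Mbp at 0.03 ± 0.18 (-0.38 to 0.45). Cnp was at -0.02 ± 0.17 (-0.41 to 0.36) and Cldn11 at -0.03 ± 0.21 (-0.51 to 0.44). The median of the 8 was -0.03, with 3 positive and 5 negative, and the median of all genes was -0.01. Taken singly, all 8 intervals stayed inside a 2-fold change, and the bound farthest from 0 was a fall of 1.89-fold, for Mobp. These intervals use 1 spread per gene for all 4 groups. The median SD of the 8 was 0.362 in KI and 0.0680 in WT cerebellum, so the intervals may be too narrow and do not exclude a 2-fold change.

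**Figure D3:**
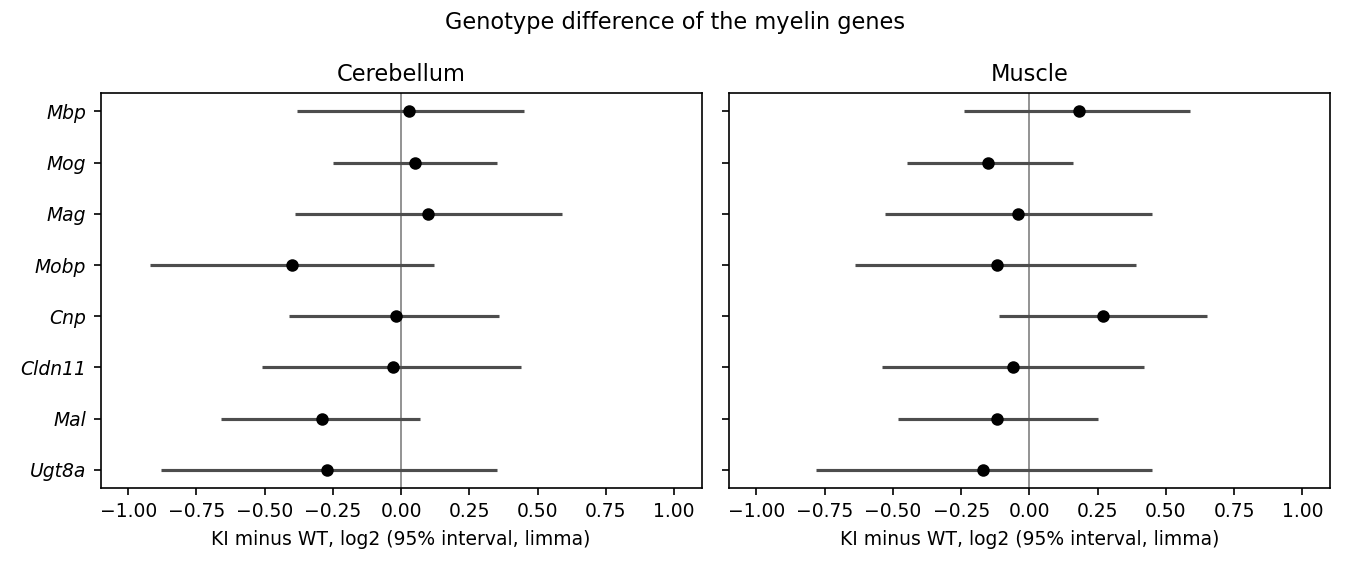
KI minus WT difference of each myelin gene in cerebellum (left) and muscle (right) on the log2 scale; points are the limma estimates and bars their 95% intervals. All 16 intervals span 0, and their bounds run from -0.92 to 0.65.

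In muscle no member was called either, where 495 of 13933 genes, or 3.55%, were called between KI and WT. Again 0 of the 8 had an unadjusted p under 0.05 in limma, against 20.3% of all genes tested. Cnp had the largest difference of the 8, at 0.27 ± 0.17 on the log2 scale (SE, n = 2 arrays per group; limma adjusted p = 0.408; 95% interval -0.11 to 0.65), and its KI arrays were above its WT arrays. Mog was at -0.15 ± 0.13 (-0.45 to 0.16), with its KI arrays below. Separation of this kind was found in 50.2% of all genes in muscle, 30.3% with KI above and 19.9% with KI below. Mbp was at 0.18 ± 0.18, and the other 5 genes were between -0.17 (Ugt8a) and -0.04 (Mag). The median of the 8 was -0.09, against 0.03 over all genes. All 8 intervals, with the same shared spread, again stayed inside a 2-fold change.

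The genotype difference was also compared between the tissues in the same fit. The muscle effect minus the cerebellum effect ran from -0.20 for Mog to 0.30 for Cnp, and none of the 8 was called (limma adjusted p from 0.593 to 0.974). Of 14708 genes tested, 21 were called, or 0.143%.

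The 2 KI cerebellum arrays differed from each other in all 8 myelin genes. Replicate 94 was above replicate 97 by 0.70 in Mobp, 0.60 in Cldn11, 0.57 in Ugt8a, 0.52 in Cnp and 0.51 in Mal on the log2 scale. The gap was 0.49 in Mag, 0.36 in Mog and 0.16 in Mbp. The median gap was 0.51 over the 8 and -0.01 over all genes tested, of which 47.9% were higher on replicate 94. Gene by gene, 6 of the 8 gaps were above 0.39, the 95th percentile of the gaps of all tested genes, and those of Mog and Mbp were below it. The WT cerebellum arrays also differed in a single direction, with replicate 95 above 96 in all 8 genes, by 0.01 to 0.30 (median 0.10). Over all genes tested 46.5% were higher on replicate 95.

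Set against the WT mean, KI replicate 97 was lower in all 8 genes, by a median of -0.31 (range -0.75 to -0.05). KI replicate 94 was higher in 6 of 8, with a median of 0.17 (range -0.05 to 0.34). Replicate 97 was the lowest of the 4 cerebellum arrays in 8 of 8 genes, as it was in 27.3% of all genes tested. The count was 8 with arrays centred on their medians and 7 after either quantile normalisation. Replicate 94 was the highest in 5 of the 8 and WT replicate 95 in the other 3. The median SD of the 8 genes was 0.362 in KI and 0.0680 in WT cerebellum, against 0.0973 and 0.0802 over all genes tested (n = 2 arrays each). The genotype values above therefore rest on which KI array is used: without replicate 94 the difference of Mobp was -0.75, and without replicate 97 it was -0.05.

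The gap between the KI cerebellum arrays was shared by many, but not all, genes of the lineage. Of 26 tested genes of mature oligodendrocytes, 22 were higher on replicate 94, with a median gap of 0.33 and a range of -0.10 to 0.93. The share of all genes tested was 47.9%. Replicate 97 was the lowest cerebellum array in 16 of these 26, or 61.5%. Anln, a septin-binding scaffold of myelin, had the widest gap of that list (0.93) and Bcas1, a marker of early myelinating cells, the next (0.88). Both are named after their values were seen. Olig1, a basic helix-loop-helix factor of the lineage, was at 7.90 and 6.87 on the KI arrays and at 7.21 and 6.82 on the WT arrays. Its gap was the widest of the 14 lineage transcription factors, which ran from -0.44 to 1.02 and were positive in 9. The gap of Sox10 was -0.30. Olig1 and Sox10 are singled out here after their gaps were seen. The 14 lineage transcription factors together had a median gap of 0.05, the 12 precursor genes 0.14, the 15 sphingolipid genes 0.07 and the 15 genes of the node and axon 0.00.

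Markers of some other cerebellar cells also differed between the KI arrays, in the same or in the opposite direction. Of all genes tested, 47.9% were higher on replicate 94. All 5 tested choroid plexus genes were higher on replicate 94 (median gap 0.52, range 0.29 to 0.75), and the mean of that list was 7.93 and 7.42 on KI arrays 94 and 97 and 7.28 and 7.63 on WT arrays 95 and 96. All 5 tested Purkinje cell genes were lower on replicate 94 (median -0.39), with list means of 9.47 and 9.76 in KI and 10.27 and 10.29 in WT. Of 7 granule cell genes 0 were higher on replicate 94 (median -0.25), with list means of 9.99 and 10.19 in KI and 10.40 and 10.27 in WT. The median gap was -0.06 over 9 genes of astrocytes and Bergmann glia and 0.09 over 6 microglial genes. Their part in the values of the myelin genes was not tested.

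**Figure D4:**
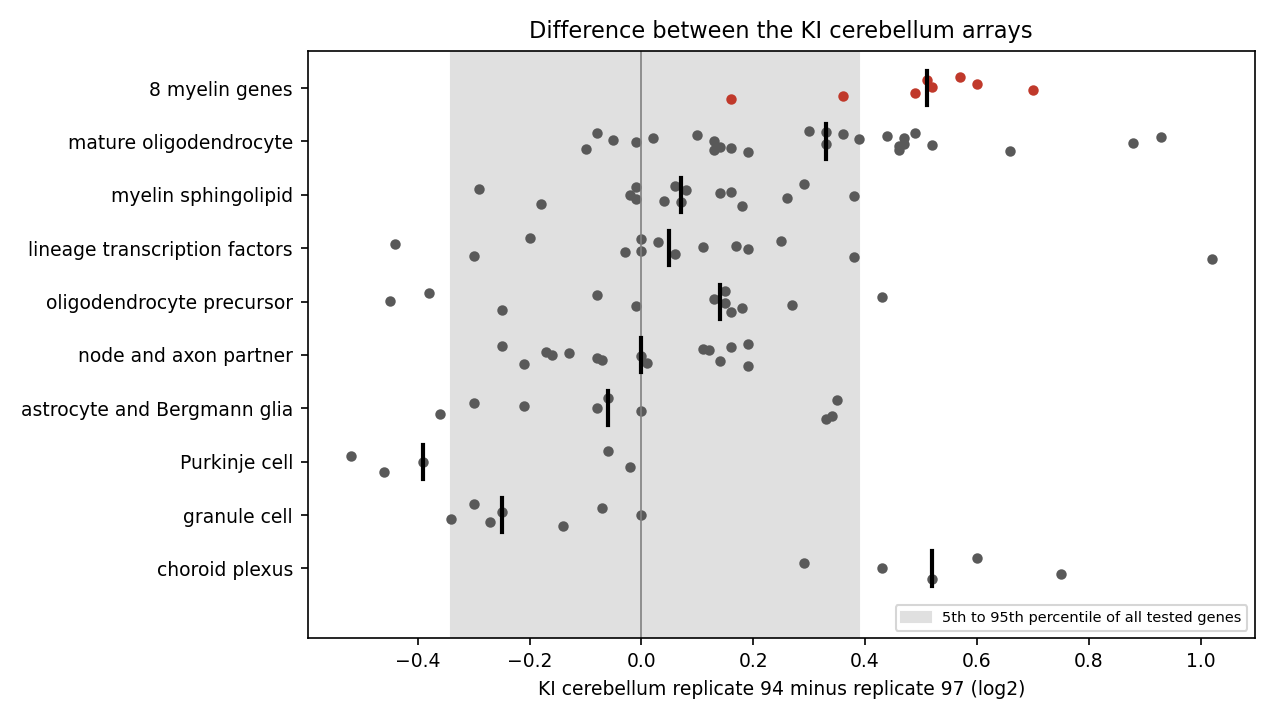
Difference between the KI cerebellum arrays, replicate 94 minus replicate 97, on the log2 scale for each tested gene of 10 lists; black bars are list medians and the grey band is the 5th to 95th percentile of all tested genes (-0.34 to 0.39). The 8 myelin genes (red) lie between 0.16 and 0.70, with a median of 0.51, and the Purkinje cell genes lie below 0.

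In muscle the KI arrays differed in the same direction in 6 of 8 myelin genes (median 0.30), against 51.1% of all genes tested. Ugt8a (0.56) and Mbp (0.50) had the widest gaps and Mag (-0.06) and Mog (-0.05) the opposite sign. The WT muscle arrays differed by as much, from -0.73 in Ugt8a to 0.46 in Mobp, with 4 of 8 positive, against 49.4% of all genes.

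Among the other genes of mature oligodendrocytes, none of 26 tested was called between KI and WT cerebellum by limma. Of these, 2 had an unadjusted p under 0.05, against 5.33% of all genes tested, and the median difference was 0.04. Cryab had the smallest p of the list. It was at 8.27 and 8.31 on the KI arrays and at 8.75 and 8.74 on the WT arrays (-0.46 ± 0.10, SE; limma adjusted p = 0.31). Car2, the carbonic anhydrase of oligodendrocytes, was at 9.24 and 8.77 in KI and at 9.48 and 9.37 in WT (-0.42 ± 0.17; limma adjusted p = 0.857). Both genes thus had KI below WT without overlap and without passing the test. Ermn was at -0.38 ± 0.19 and Gpr37, an orphan receptor of maturing oligodendrocytes, at 0.22 ± 0.12.

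Regulators and precursor genes gave no call in the cerebellum. Of 14 transcription factors 0 were called by limma, 2 had an unadjusted p under 0.05, and the median difference was 0.06. Id2, an inhibitor of oligodendrocyte differentiation, was at 10.23 and 9.98 in KI and at 10.61 and 10.53 in WT (-0.46 ± 0.13; limma adjusted p = 0.551). Sox8, a relative of Sox10, was at 0.31 ± 0.12, Tcf7l2, a Wnt effector of maturing cells, at -0.20 ± 0.15 and Olig1 at 0.37 ± 0.30. Of 12 precursor genes 0 were called, 0 had an unadjusted p under 0.05, and 9 had positive differences (median 0.18), 6 of them with both KI arrays above WT. The proteoglycan Cspg4, known as NG2, was at 0.24 ± 0.12, Enpp6 at 0.33 ± 0.18, Lhfpl3 at 0.27 ± 0.17 and C1ql1 at 0.19 ± 0.12. Separation with KI above was found in 15.3% of all genes.

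Sphingolipid genes were centred on 0 in the cerebellum, with 0 of 15 called by limma, 0 at an unadjusted p under 0.05 and a median of 0.01. Kdsr, Galc, Cers2 and Sptlc2 were between -0.20 and 0.14. Of 15 node and axon genes 0 were called and 1 had an unadjusted p under 0.05 in limma. That gene was Cntnap2, the Caspr2 protein that gathers potassium channels beside the paranode. It was at 7.79 and 7.65 in KI and at 7.36 and 7.25 in WT (0.42 ± 0.11, SE; limma adjusted p = 0.413). Of 10 tested Schwann cell genes 0 were called in the cerebellum and 1 had an unadjusted p under 0.05 (median 0.01).

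In muscle 1 gene of these lists was called between KI and WT. Galc, the lysosomal enzyme that breaks down galactosylceramide, the product of Ugt8a, was at 6.01 and 6.10 on the KI arrays and at 5.63 and 5.59 on the WT arrays. It rose by 0.44 ± 0.10 on the log2 scale (SE, n = 2 arrays per group; limma adjusted p = 0.0497), with KI above WT without overlap. The call was lost in 12 of 19 alternative settings, among them every array left out in turn, where adjusted p over all settings ran from 0.0307 to 0.186. Ugcg, which starts the glucosylceramide branch, was at 7.14 and 7.28 in KI and at 6.68 and 6.77 in WT (0.48 ± 0.12; limma adjusted p = 0.056). Sptlc2, a subunit of serine palmitoyltransferase, was at 0.30 ± 0.11 and Elovl1 at 0.27 ± 0.11. Of the 15 sphingolipid genes 1 was called higher and 0 lower, against 2.66% of all genes called higher in muscle, and the list median was 0.07.

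Genes of mature oligodendrocytes that passed the filter in muscle gave no call there, with 18 tested, 5 at an unadjusted p under 0.05 in limma and a median of 0.03. Over all genes tested in muscle, 20.3% had such a p, and KI lay above WT without overlap in 30.3%. Aspa, which cleaves N-acetylaspartate, was at 6.38 and 6.34 in KI and at 5.79 and 5.67 in WT (0.63 ± 0.15; limma adjusted p = 0.0557). Car2 was at 6.86 and 7.15 in KI and at 6.52 and 6.34 in WT (0.58 ± 0.17; limma adjusted p = 0.101). Plekhb1 (0.49 ± 0.16) and Jam3 (0.39 ± 0.17) also lay higher in KI without passing the test. Aspa was called in 6 of its alternative settings and Ugcg in 4.

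The remaining lists held no call in muscle, where 20.3% of all genes tested had an unadjusted p under 0.05 in limma. Of 11 transcription factors 0 were called by limma and 2 had an unadjusted p under 0.05 (median -0.10), with Zfp488 at -0.33 ± 0.13, Id2 at 0.31 ± 0.13, Tcf7l2 at 0.32 ± 0.15 and Nkx6-2 at -0.22 ± 0.12. Of 11 precursor genes 0 were called and 1 had an unadjusted p under 0.05 (median -0.01), with Vcan, the proteoglycan versican, at 0.32 ± 0.11. Of 13 node and axon genes 0 were called and 4 had an unadjusted p under 0.05 (median 0.02), with Ank3, the ankyrin of the node, at 0.29 ± 0.11 and Sptbn4, its spectrin partner, at -0.44 ± 0.18. Lingo1 was at -0.41 ± 0.17 and Cntnap2 at 0.25 ± 0.11.

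Schwann cell genes, the peripheral counterpart, gave 0 calls among 10 tested in muscle by limma, with 1 at an unadjusted p under 0.05 and a median of 0.01. Drp2 was at 6.67 and 6.59 in KI and at 5.77 and 6.45 in WT (0.52 ± 0.19; limma adjusted p = 0.172). Its WT arrays thus lay far apart, and the difference was 0.18 without WT replicate 95 and 0.87 without WT replicate 96, where it was called (limma adjusted p = 0.0285). S100b was at -0.24 ± 0.15, Cldn19, the claudin of Schwann cells, at 0.20 ± 0.12 and Egr2, the zinc finger factor that drives peripheral myelination, at -0.09 ± 0.10.

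Genes with a profile most like that of the 8 over the 8 arrays were ranked by the root mean square difference from their mean centred profile. The 5 nearest were Rufy3, an adaptor of axon growth (0.0922 on the log2 scale), Reps2, an endocytic adaptor (0.0967), Ahi1, a protein of the ciliary transition zone (0.10), Gatm, the first enzyme of creatine synthesis (0.104), and Dpysl2, a microtubule-binding protein of axons (0.114). Among the 8 themselves the distance to the mean ran from 0.121 for Cnp to 0.331 for Mal. The measure is dominated by the difference between tissues, which was between -3.02 and -2.90 in these 5 genes. Rufy3 was at 9.15 and 8.46 on the KI cerebellum arrays and at 8.95 and 8.62 on the WT ones, and Gatm was at 10.28 and 9.83 against 10.15 on both.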

How the data were processed

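RNA was measured on Affymetrix Mouse Gene 1.0ST arrays. The values the authors deposited were log2 expression levels, and per the submitters' processing notes they used GCOS and RMA. RMA corrects background, brings arrays to a common distribution and summarises the probes of a set. No source used here gives versions. The 8 arrays shared 35556 probe sets. The platform annotation gave 1 symbol to 21789, several to 1621 and none to 12146, and the brightest probe set per gene was kept, which left 19938 genes. A gene was tested in a tissue where at least 2 of 4 arrays reached the 40th percentile of the array, which kept 13641 genes in cerebellum, 13933 in muscle and 14708 in either.

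A model with a mean for each of 4 groups was fitted with limma 3.58.1 in R 4.3.3 (eBayes, 4 residual and 5.30 prior degrees of freedom). Adjusted p-values are Benjamini-Hochberg values over all tested genes, and the threshold was 0.05. Errors of differences are standard errors of the fit. The procedure was tested on simulated data with the same spread in all groups, unlike that of the 8 genes in cerebellum. A 1.5-fold genotype change was recovered in 31.9% of cases in each tissue. A 2-fold change was recovered in 88.4% in cerebellum and 89.0% in muscle. For the difference of effects the shares were 4.40% at 1.5-fold and 57.6% at 2-fold. The 8 genes and all gene lists were chosen with earlier results of these data known. The lists cover mature oligodendrocytes, lineage transcription factors, precursors, myelin sphingolipids, node and axon partners and Schwann cells, with markers of other cells.

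Named were the 8 genes, up to 4 genes per list with the smallest p in each genotype comparison and any called there, up to 3 per list with the largest tissue difference, and the 5 genes most like the 8. Some genes of the lists are not reported here. Promoters came from RefSeq. Alternatives covered the filter, the probe set, the normalisation, the variances, the arrays in the fit, a replicate block and the threshold.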

Additional observations from a re-analysis of the deposited data

Results flagged for a closer look

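None of the 8 myelin genes is among the results that follow. Of 47 genes looked at, 9 had both KI arrays on one side of WT in cerebellum and on the other side in muscle. Over all genes tested in both tissues 10.0% did so, but most of the 47 were named for a small p in a genotype comparison, so the count cannot be read against that share. The muscle effect minus the cerebellum effect was tested in limma and passed in none of the 9. It was 1.00 on the log2 scale for Car2 (-0.42 in cerebellum, 0.58 in muscle; limma adjusted p = 0.13), 0.77 for Id2 (-0.46 and 0.31; 0.139) and 0.62 for Cryab (-0.46 and 0.16; 0.133). It was 0.57 for Galc (-0.12 and 0.44; 0.153). In the other 5 the sign was opposite, with the difference at -0.46 for Zfp488 (0.13 and -0.33; 0.338), -0.46 for Lhfpl3 (0.27 and -0.18; 0.411) and -0.41 for Sox8 (0.31 and -0.10; 0.34). It was -0.35 for Cspg4 (0.24 and -0.11; 0.392) and -0.32 for Nkx6-2 (0.10 and -0.22; 0.426).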

How the results depend on the processing

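Of the 8 myelin genes, 0 were called between KI and WT in either tissue, 0 for the difference of effects and 8 for tissue under every alternative that was run, 19 for each genotype comparison and 17 for the other comparisons. A stricter filter left 5 differences of the 8 genes untested. The signs of the uncalled differences were less stable. Mag in muscle went to 0.00 after quantile normalisation within each tissue, and the difference of effects of Cldn11 to 0.03 with centred arrays. With 1 array left out, the lone array of its group is assumed to vary like the other groups. In cerebellum the difference then ran from -0.05 to 0.11 for Mbp, -0.13 to 0.23 for Mog, -0.15 to 0.34 for Mag, -0.75 to -0.05 for Mobp, -0.28 to 0.23 for Cnp, -0.34 to 0.27 for Cldn11, -0.55 to -0.04 for Mal and -0.55 to 0.02 for Ugt8a. In muscle it ran from -0.07 to 0.43 for Mbp, -0.38 to 0.29 for Mag, -0.36 to 0.11 for Mobp, -0.23 to 0.11 for Cldn11 and -0.53 to 0.20 for Ugt8a. For the difference of effects it ran from -0.10 to 0.40 for Mbp, -0.48 to 0.20 for Mag, -0.07 to 0.62 for Mobp, -0.33 to 0.27 for Cldn11, -0.08 to 0.43 for Mal and -0.27 to 0.47 for Ugt8a. Signs also turned for Olig1 (-0.14 to 0.88), Tcf7l2 (-0.41 to 0.02), Ngfr (-0.02 to 0.50) and Cdh19 (-0.28 to 0.69) in cerebellum and for Bmp4 in muscle (-0.08 to 0.38). Counts over all genes, 28 in cerebellum, 495 in muscle and 21 for the difference of effects, became 18, 246 and 3 with no filter and 6, 69 and 0 over all probe sets. For the difference of effects the count was 38 with a stricter filter, 63 with trended and robust variances and 108 at an adjusted p of 0.1. In muscle it was 995 at an adjusted p of 0.1 and 155 where only muscle arrays were fitted. With 1 array left out the counts ran from 4 to 29 in cerebellum, 105 to 385 in muscle and 0 to 23 for the difference of effects. The causes were not tested. Replicate numbers recur between tissues, but no label says that they are animals, so the numbers were not taken as pairs. Deviations of same-numbered arrays from their group means correlated at 0.0566 or -0.0965. With 2 arrays per group such deviations mirror each other. Neither this check nor the counts that follow can therefore tell whether the numbers are animals. Of 4 cerebellum arrays, 0 were most like the muscle array of their number, and of 4 muscle arrays, 2 were most like the cerebellum array of theirs. With the replicate block, random for genotype and fixed for the others, 27 genes were called in cerebellum, 494 in muscle, 14 for the difference of effects and 3823 for tissue. Low signal limits the muscle values of Mag and Ugt8a. In the tissue comparison it also limits those of Ermn, Omg, St18, Ptprz1, Tnr, Cntn1, Nrcam, Scn8a and Cdh19.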
